A study of Mus musculus with 24 samples.

Results

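An antibody that blocks the cytokine TNFa was compared with an isotype control antibody in the colon of mice with T cell transfer colitis. The comparison holds 8 of the 24 libraries of the series, 4 labelled anti-TNFa mAb (here anti-TNF) and 4 labelled Isotype mAb (here Isotype), each assigned by the sample that its own count file belongs to. Female SCID mice of the strain C.B-17/Icr-scid/scid, which lack mature T and B cells, were bought at 7 weeks of age and received ConA-activated and IL-2-activated CD4+ T cells from BALB/c spleens on day 0. Mice were divided on day 17 so that the groups had like stool scores, and both antibodies were then given into the peritoneum at 0.1 mg per mouse, every 4 days. RNA of the distal colon was taken on day 28, and poly(A) RNA was sequenced on an Ion Torrent instrument. Normal libraries came from SCID mice with no transferred cells and no treatment. Vehicle libraries came from mice with the same transfer that were given methylcellulose alone, and 2 further groups, MEKi 0.3 and MEKi 1, received a MEK inhibitor by mouth at 0.3 or 1 mg/kg. Whether replicates are separate mice is not in the labels, so p-values reflect only how much these samples scattered, some of which may be technical.

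TNF is made as a membrane protein, mainly by activated macrophages and T cells, and the protease encoded by Adam17 releases it as a soluble cytokine. It binds 2 receptors, encoded by Tnfrsf1a and Tnfrsf1b, and the first of these turns on NF-kB and MAP kinase signalling through Tradd, Traf2 and Ripk1. Its known target genes include adhesion molecules of the endothelium, chemokines that draw neutrophils and monocytes, and inhibitors of NF-kB itself, and antibodies against it are used to treat inflammatory bowel disease.

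Facts about the libraries come before the results. Isotype libraries held 6139216 to 10587555 counts, and anti-TNF libraries 6974099 to 8545019. The series table, by its column names, swaps Isotype replicates 3 and 4 with anti-TNF replicates 1 and 2. Both sources give the same group for Isotype 1 and 2 and for anti-TNF 3 and 4. The library anti-TNF 4 stood apart, with correlations of 0.880 to 0.962 with the other 7 libraries. Isotype 1 had the same range, and 0.880 was the value between these 2 libraries. Isotype 1 held 4892 summed CPM (counts scaled to a common library total) of the 10 pancreas list genes. The other Isotype libraries held 61.3 to 161, anti-TNF 27.3 to 216 and Normal 328 to 467. Of that list, the protease gene Ctrb1 was at 0 CPM in every Normal and anti-TNF library. Isotype 3 held 254 summed CPM of red blood cell genes, against 27.2 to 74.1 in the other Isotype libraries. The called genes and the lists whose counts or medians rest on Isotype 1 or anti-TNF 4 are given with both libraries and without them; without both, 2.22% of all genes were lower and 1.07% higher at an unadjusted p under 0.05. The epithelial gene Epcam, a cell adhesion molecule, was at 1482 to 1694 CPM in Isotype and 1818 to 1936 in anti-TNF. B and plasma cell genes, which SCID mice should lack, summed to 123 to 2610 CPM in Isotype, 44.6 to 2051 in anti-TNF and 5.62 to 28.6 in Normal.

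Across all genes, anti-TNF and Isotype colons differed past the threshold at 3 genes. Gpr84 and Mcemp1, both genes of inflammatory leukocytes, fell, and Klf11, a transcription factor gene, rose. These are 3 of 14773 genes tested (0.0203%; 0.0135% lower and 0.00677% higher) at an adjusted p under 0.05 in edgeR's quasi-likelihood test with Benjamini-Hochberg adjustment, fitted over all 24 libraries. At an unadjusted p under 0.05 there were 1653 genes (11.2%), 814 of them lower in anti-TNF (5.51%) and 839 higher (5.68%). The median log2 fold change over all genes was -0.0021. Every anti-TNF library was below every Isotype library for 458 genes (3.1%) and above for 338 (2.29%). These shares are the background for the counts of list genes given below. The 3 genes were also past the threshold in DESeq2, which called 77 genes, and in limma-voom with sample weights, which called 45. A fit of only the 8 antibody libraries called 0 genes, with 1303 at an unadjusted p under 0.05.

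**Figure D1:**
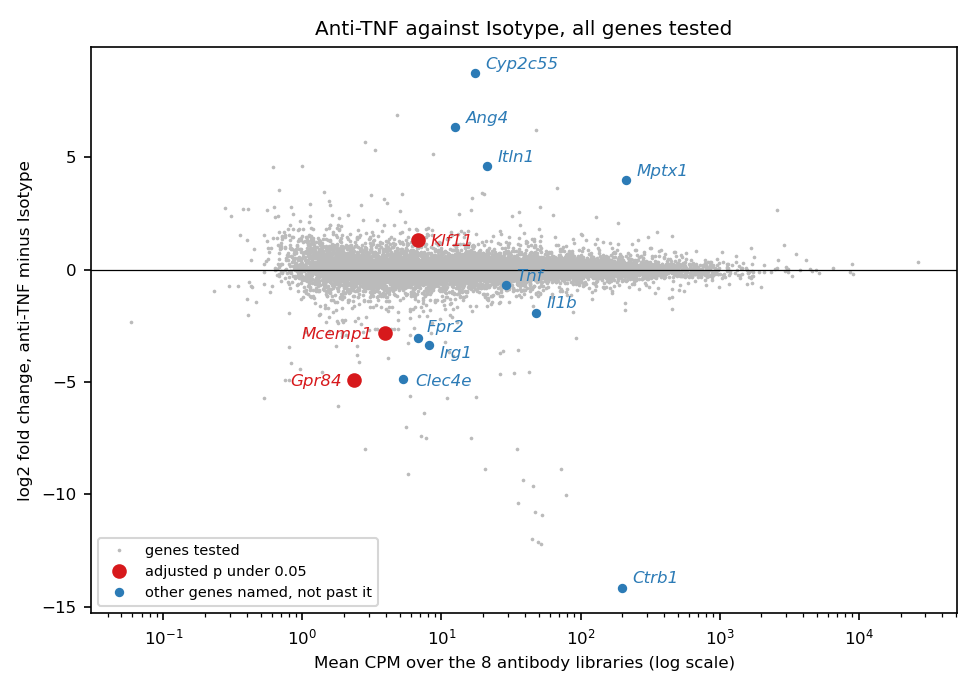
Each point is 1 of the 14773 genes tested, with its mean CPM over the 8 antibody libraries on a log axis and its log2 fold change, anti-TNF minus Isotype, on the vertical axis. The 3 red points are the genes past the threshold, Gpr84 at -4.92, Mcemp1 at -2.81 and Klf11 at 1.32, and points farther from 0, such as Ctrb1 and Cyp2c55, did not pass it.

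Gpr84 encodes a receptor for medium-chain fatty acids on neutrophils and macrophages (mm10 chromosome 15, 103308235 to 103310612, minus strand). Its level was 4.96, 3.77, 7.28 and 2.30 CPM in Isotype replicates 1 to 4 and 0.289, 0, 0.118 and 0.131 CPM in anti-TNF replicates 1 to 4. All anti-TNF libraries were below all Isotype libraries, and the whole anti-TNF group held 4 counts against 144. The log2 fold change was -4.92 ± 0.65 (SE, n = 4 per group), a 30.2-fold lower fitted level with an adjusted p of 0.000969 in edgeR. Normal colon held 0 to 0.185 CPM, and Vehicle colon 2.49 to 8.53. Against Normal, the log2 difference was 5.86 for Isotype (adjusted p = 1.15e-05, edgeR) and 0.94 for anti-TNF (adjusted p = 0.629, edgeR). Leaving out any 1 of the 8 libraries gave log2 fold changes of -5.45 to -4.53, with Gpr84 past the threshold each time. Without Isotype 1 and anti-TNF 4 together it was -4.87 (adjusted p = 0.0225, edgeR).

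Mcemp1, a membrane protein of mast cells and other myeloid cells, lies on chromosome 8 from 3665754 to 3669259, plus strand. It was at 8.93, 4.95, 9.19 and 4.42 CPM in Isotype and at 0.722, 0.594, 0.943 and 1.57 CPM in anti-TNF, again with no overlap. The log2 fold change was -2.81 ± 0.49 (SE, n = 4 per group; adjusted p = 0.0403, edgeR). The anti-TNF level lay within the spread of Normal colon, which held 0.336 to 1.53 CPM in its libraries, except for the value of 1.57, just above it. Vehicle libraries held 2.99 to 16.04 CPM, on both sides of the Isotype values. The Mcemp1 call was lost without Isotype 1, Isotype 3 or anti-TNF 1, 2 or 3, with adjusted p of 0.0772 to 0.213 in edgeR, while its log2 fold change stayed between -3.15 and -2.63 when any 1 library was left out. It was also lost without Isotype 1 and anti-TNF 4 together (-2.98, adjusted p = 0.171, edgeR).

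Klf11 encodes a zinc finger transcription factor of the Kruppel-like family (chromosome 12, 24651274 to 24662789, plus strand). Isotype libraries held 4.96, 4.13, 2.78 and 3.5 CPM, and anti-TNF libraries 8.81, 8.20, 7.55 and 14.2. The groups did not overlap, and the log2 fold change was 1.32 ± 0.24 (SE, n = 4 per group; adjusted p = 0.0453, edgeR). Normal libraries held 5.38 to 7.79 CPM and Vehicle libraries 7.98 to 9.29, all above the Isotype values. In mice given the MEK inhibitor the levels were 3.47 to 6.79 CPM in MEKi 0.3 and 3.47 to 4.6 in MEKi 1, which overlapped with Isotype. Isotype differed from Vehicle by -1.15 ± 0.24 on the log2 scale (adjusted p = 0.0112, edgeR), and anti-TNF from Vehicle by 0.17 ± 0.23 (adjusted p = 0.652, edgeR). The Klf11 call held without Isotype 4 and was lost without each of the other 7 libraries in turn, with adjusted p of 0.0580 to 0.398 in edgeR. Without anti-TNF 4, which had its highest value, the log2 fold change was 1.07, and without it and Isotype 1 it was 1.22 (adjusted p = 0.246, edgeR). Under the column names of the series table, in which 4 of the 8 libraries change group, 0 genes passed and 291 had an unadjusted p under 0.05, with Gpr84 at 0.05, Mcemp1 at 0.05 and Klf11 at 0.11 on the log2 scale.

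**Figure D2:**
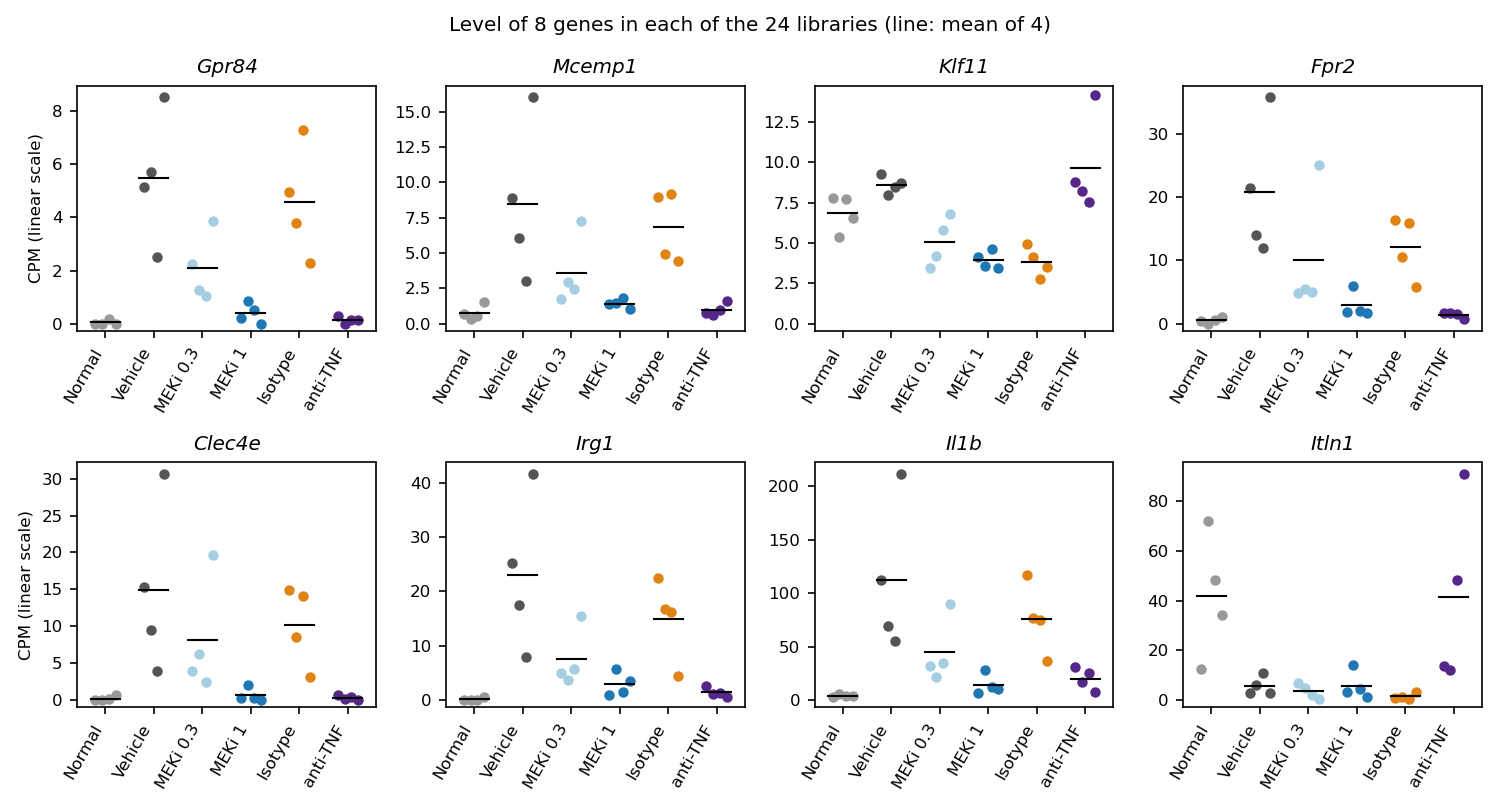
Each panel shows 1 gene, with CPM on a linear vertical axis, 1 point per library in the 6 groups and a line at the mean of 4. For Gpr84, Mcemp1, Fpr2, Clec4e, Irg1 and Il1b the anti-TNF points lie below all Isotype points, and for Klf11 and Itln1 above them.

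The bases just before the 3 genes are shown because these are the loci whose transcript level changed, 2 of them together and in the same direction. They are RefSeq promoter windows on GRCm38.p6, cut to the part before the annotated gene, 5′ to 3′ on the gene's strand, at chr15:103310613-103310688 (minus), chr8:3665512-3665753 (plus) and chr12:24651121-24651273 (plus). Capitals mark matches to the GC box GGGCGG on either strand.
Gpr84: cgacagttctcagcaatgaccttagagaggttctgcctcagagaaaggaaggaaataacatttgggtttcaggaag
Mcemp1: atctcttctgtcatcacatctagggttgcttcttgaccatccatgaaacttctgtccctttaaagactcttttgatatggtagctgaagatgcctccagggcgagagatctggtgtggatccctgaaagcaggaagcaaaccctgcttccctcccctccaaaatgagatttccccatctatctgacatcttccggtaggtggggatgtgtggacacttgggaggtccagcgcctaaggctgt
Klf11: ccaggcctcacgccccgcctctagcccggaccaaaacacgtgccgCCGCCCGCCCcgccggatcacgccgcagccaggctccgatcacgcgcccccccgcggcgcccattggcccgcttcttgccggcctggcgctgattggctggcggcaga
In the 250 bases before each RefSeq start, on both strands, Klf11 held 4 matches to GGGCGG, of which 2 overlapping ones are in the run above, and 3 to GGGNNNNNCC, a loose form of the NF-kB site. Of 32817 RefSeq promoters of that length, 32.7% held GGGCGG and 45.8% held GGGNNNNNCC. Neither motif, nor GAGGAA (a PU.1-type ETS site, in 23.3% of promoters) or TGANTCA (the AP-1 site, in 6.75%), was found in these windows of Gpr84 and Mcemp1. The shorter ETS core GGAA was not counted, and it occurs in the sequences printed for both genes.

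The genes with the next smallest p included receptors and enzymes of phagocytes on the lower side and secreted epithelial proteins on the higher side, and none of them passed the adjusted threshold in edgeR. Fpr2, a receptor that guides phagocytes to bacterial peptides, was at 16.4, 10.5, 15.96 and 5.71 CPM in Isotype and 1.73, 1.66, 1.53 and 0.787 in anti-TNF (log2 fold change -3.06 ± 0.57, n = 4 per group, adjusted p = 0.0632, edgeR). Clec4e, the C-type lectin Mincle, was at 14.9, 8.61, 14.0 and 3.13 CPM in Isotype and 0.722, 0.119, 0.472 and 0 in anti-TNF (-4.89 ± 0.91, adjusted p = 0.0632, edgeR). Irg1, now named Acod1, makes itaconate in activated macrophages. Its levels were 22.5, 16.7, 16.1 and 4.42 CPM in Isotype and 2.60, 1.19, 1.30 and 0.656 in anti-TNF (-3.38 ± 0.64, adjusted p = 0.0632, edgeR). In all 3 genes Isotype 4 was the lowest Isotype library, yet above every anti-TNF library. Without Isotype 4, 34 genes passed, 28 lower and 6 higher, Fpr2, Clec4e, Irg1 and Itln1 among them. Leaving out any other 1 library gave 1 or 2 genes, Gpr84 alone or with Mcemp1. In those fits the adjusted p of Fpr2, Clec4e, Irg1 and Itln1 rose to as much as 0.398 in edgeR.

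Other genes with the smallest p on the lower side were Igsf6 (log2 fold change -1.54), Cfp, which encodes the complement factor properdin (-1.19), Asprv1 (-2.63), the B cell chemokine gene Cxcl13 (-1.52) and Ltb (-1.19). Cfp was at 33.0 to 62.8 CPM in Isotype and 15.4 to 27.7 in anti-TNF, Cxcl13 at 21.8 to 44.8 against 7.08 to 16.9, and Igsf6 at 11 to 22.7 against 4.83 to 8.23. The groups of none of these 5 genes overlapped, and their adjusted p were 0.0806 to 0.164 in edgeR.

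On the higher side, Itln1, an intelectin secreted by goblet and Paneth cells, was at 0.992, 1.41, 0.520 and 3.31 CPM in Isotype and at 13.6, 12.1, 48.3 and 90.9 in anti-TNF (log2 fold change 4.61 ± 0.85, n = 4 per group, adjusted p = 0.0632, edgeR). All anti-TNF libraries were above all Isotype libraries and across the range of Normal colon, 12.5 to 72.0 CPM. Ang4, an antimicrobial ribonuclease, was at 0.110 to 0.552 CPM in Isotype and at 1.73, 3.21, 10.3 and 84.4 in anti-TNF, with a log2 fold change of 6.32 ± 1.42. Most of the Ang4 group mean came from anti-TNF 4. The mucosal pentraxin genes Mptx1 and Mptx2, close relatives between which reads may be shared, were at 0.882 to 45.8 and 0.441 to 17.2 CPM in Isotype and at 86.2 to 933 and 30.6 to 287 in anti-TNF. Their groups did not overlap either (log2 fold change 3.98 ± 0.97 and 3.63 ± 0.87). Smaller differences with no overlap were those of Ccl24, the eosinophil chemokine eotaxin-2 (1.76), the tubulin-modifying enzyme gene Ttll10 (1.38), H2-T3, a non-classical MHC class I gene of gut epithelium (1.19), Dhx58, a member of the RIG-I family of RNA sensors (0.75), and Lrrc66 (0.68), all with adjusted p of 0.137 to 0.164 in edgeR. Every Vehicle library was also above every Isotype library for Ccl24 (6.27 to 13.5 CPM against 2.24 to 3.64) and Dhx58 (27.8 to 32.3 against 18.4 to 27.4). For Ttll10, H2-T3 and Lrrc66, Vehicle and Isotype overlapped.

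The transcripts of TNF, its relatives and its receptors showed no call. Tnf itself was at 42.9, 23.3, 48.2 and 29.1 CPM in Isotype and 34.9, 21.8, 27.2 and 5.51 in anti-TNF, so the groups overlapped (log2 fold change -0.68 ± 0.48, n = 4 per group, adjusted p = 0.625, edgeR). Against Normal colon, with 0 to 3.03 CPM, Tnf was up in both groups, by 4.6 in Isotype (adjusted p = 3.8e-05) and by 3.92 in anti-TNF (adjusted p = 0.000432, edgeR). Lta, which encodes lymphotoxin alpha, was at 0.772 to 2.24 CPM in Isotype and 0.525 to 1.77 in anti-TNF (-0.02 ± 0.47). Ltb, the membrane anchor of the lymphotoxin heteromer, was at 32.6, 33.8, 34.2 and 26.9 CPM in Isotype and at 19.5, 17.8, 12.4 and 6.17 in anti-TNF. Its groups did not overlap, and its log2 fold change was -1.19 ± 0.27 (unadjusted p = 0.000168, adjusted p = 0.164, edgeR).

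Of the receptors, Tnfrsf1a was at 194, 172, 229 and 175 CPM in Isotype and at 199, 157, 208 and 124 in anti-TNF (log2 fold change -0.16 ± 0.17, n = 4 per group, unadjusted p = 0.36, edgeR). Tnfrsf1b, the receptor found mainly on leukocytes and endothelium, was at 208, 183, 293 and 142 CPM against 160, 116, 138 and 53.8 (-0.82 ± 0.34, unadjusted p = 0.0244, edgeR). Adam17 was at 48.6 to 66.3 CPM against 36.7 to 50.5 (-0.36 ± 0.15). The groups overlapped for all 3 of these genes. Of 10 ligand, receptor and shedding genes, 3 were lower and 0 higher at an unadjusted p under 0.05, with a median log2 fold change of -0.29. The share of all genes lower at that p was 5.51%. Without Isotype 1 and anti-TNF 4, 1 of the 10 was lower, against 2.22% of all genes, with a median of -0.13.

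Genes of the signalling chain below the receptor centred on no difference. Of 21, including Tradd, Ripk1, Fadd, the IkB kinase genes and the NF-kB subunit genes, 3 were lower and 0 higher at an unadjusted p under 0.05, and the median was 0.00. The share of all genes lower at that p was 5.51%. The 3 lower signalling genes were Rela (-0.32) and Nfkb2 (-0.60), which encode subunits of NF-kB, and the adaptor gene Traf2 (-0.37). Nfkb2, itself a target of NF-kB, was at 129, 102, 128 and 92.3 CPM in Isotype and 75.8, 84.6, 69.6 and 67.6 in anti-TNF, with no overlap (unadjusted p = 0.000533, adjusted p = 0.164, edgeR).

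Downstream of TNF, more genes lay on the lower side. Of 26 measured target genes of TNF and NF-kB, 25 had estimates below 0, and 15 were lower and 0 higher at an unadjusted p under 0.05, where 5.51% of all genes were lower. The median was -0.84, and for 12 genes every anti-TNF library was below every Isotype library, against 3.1% of all genes. None of the 26 passed the adjusted threshold in edgeR. The monocyte chemokine gene Ccl2 was at 28.2, 17.2, 15.6 and 13.0 CPM in Isotype and at 8.09, 4.28, 7.43 and 2.36 in anti-TNF (log2 fold change -1.74 ± 0.42, n = 4 per group, adjusted p = 0.164, edgeR). Nfkbie, an inhibitor of NF-kB, was at 42.6 to 58.4 CPM in Isotype and 20.5 to 32.6 in anti-TNF (-0.92 ± 0.23). Icam1, an adhesion molecule for leukocytes, was at 81.7 to 132 CPM against 29.5 to 76.7 (-0.86 ± 0.27). Ccl2, Nfkbie and Icam1 all had groups that did not overlap. By contrast, the groups overlapped for 2 other feedback inhibitors, Nfkbia (167 to 300 against 90.3 to 185 CPM, -0.48 ± 0.19) and Tnfaip3, which encodes A20 (110 to 146 against 95.7 to 126 CPM, -0.16 ± 0.19). Without Isotype 1 and anti-TNF 4, 4 of the 26 targets were lower at an unadjusted p under 0.05, against 2.22% of all genes, with a median of -0.47.

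**Figure D3:**
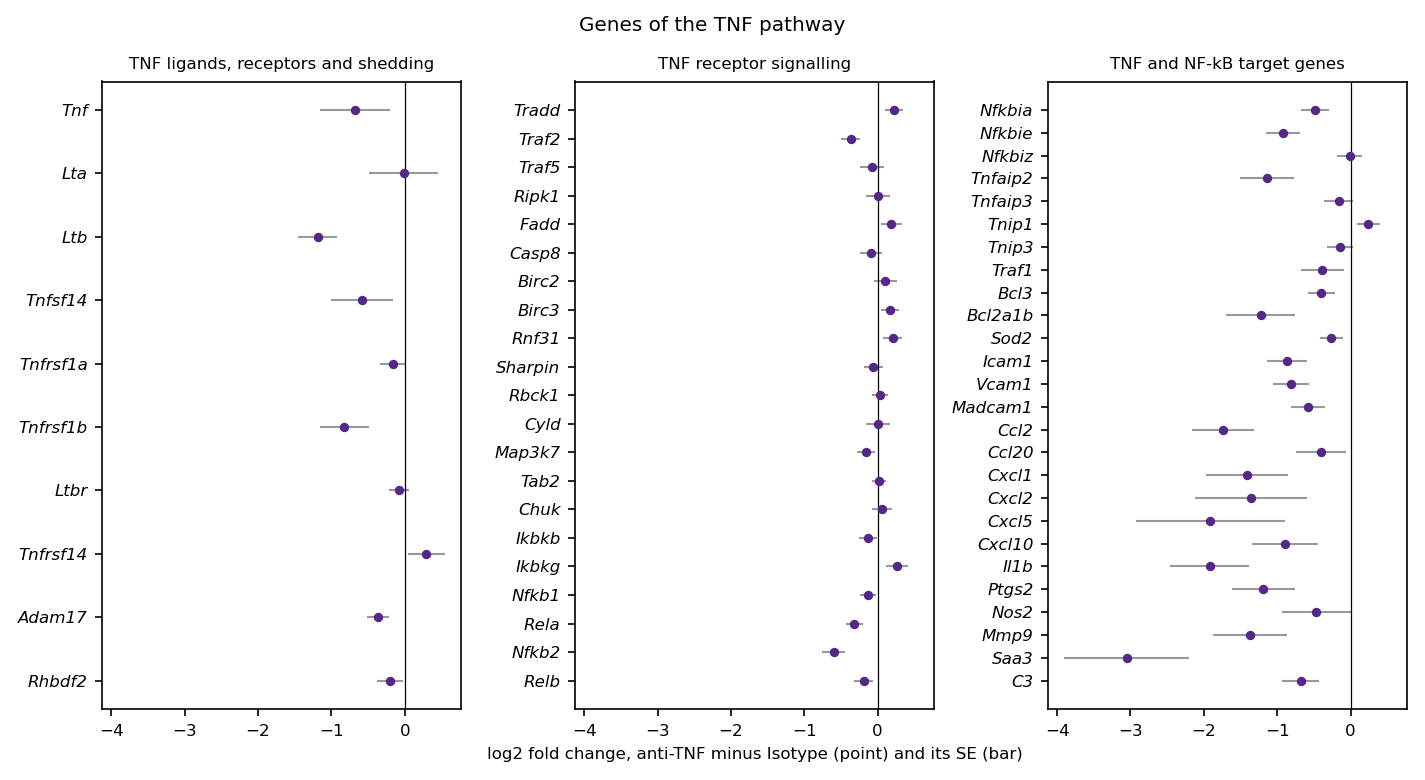
Points are log2 fold changes, anti-TNF minus Isotype, and bars their SE, for 10 ligand, receptor and shedding genes, 21 signalling genes and 26 target genes. The signalling genes lie around a median of 0.00, while 25 of the 26 targets lie below 0.

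The IL-1 family and related cytokines had the same direction as these targets. Il1b was at 117, 76.9, 74.4 and 36.1 CPM in Isotype and at 31.2, 17.1, 25 and 7.22 in anti-TNF (log2 fold change -1.92 ± 0.54, n = 4 per group, adjusted p = 0.223, edgeR), with no overlap. In anti-TNF it remained above Normal colon, with 2.81 to 5.38 CPM, by 2.33 on the log2 scale (adjusted p = 0.0154, edgeR). Il1f9, also called Il36g, was at 9.7, 6.6, 5.72 and 1.84 CPM against 1.59, 1.19, 0.825 and 0.131 (-2.65 ± 0.61), and Il11, a cytokine of stromal cells, at 14.4, 3.77, 3.12 and 1.66 against 1.16, 0.594, 1.30 and 0.525 (-2.67 ± 0.64). Il1rn, the IL-1 receptor antagonist, was at 104 to 122 CPM against 71.5 to 97.0 (-0.39 ± 0.16). Neither Il1f9, Il11 nor Il1rn had groups that overlapped. Of 13 measured genes, 6 were lower and 0 higher at an unadjusted p under 0.05, where 5.51% of all genes were lower, with a median of -0.50. Without Isotype 1 and anti-TNF 4, 4 were lower, with a median of -0.40. Il6 at up to 1.32 CPM, Osm at up to 3.31 and Il17a at up to 1.89 were too low to be tested.

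Neutrophil genes had the lowest median of the immune lists, -2.04 over 16 measured genes, against -0.0021 over all genes. Of these, 11 were lower and 0 higher at an unadjusted p under 0.05, against 5.51% of all genes lower. For 7, among them Fpr2 and Clec4e, all anti-TNF libraries were below all Isotype libraries, against 3.1% of all genes. None passed the adjusted threshold in edgeR. Ngp, a granule protein gene, had 156 counts in Isotype (6.17, 0.590, 15.3 and 0.644 CPM in replicates 1 to 4) and 0 in anti-TNF. With Ngp set at a floor of 3 counts over the group, the list median was still -2.04. In the fit without Isotype 1 and anti-TNF 4, 7 were lower, with a median of -1.49. The list did not move as one. S100a8 and S100a9, the subunits of calprotectin, were at 155 to 301 and 103 to 645 CPM in Isotype and at 17.7 to 205 and 15.9 to 207 in anti-TNF, with overlap (-1.06 ± 0.69 and -1.82 ± 0.97). Ltf, Ly6g and Cd177 were at mean levels of 40.7, 267 and 1046 CPM in Isotype and 38.9, 242 and 1227 in anti-TNF. The summed CPM of the list overlapped, at 1645 to 2674 against 827 to 2324, but it is weighted toward members with high levels such as Cd177. In Normal the list summed to 347 to 541 CPM, while S100a8 and S100a9 were at 0 to 0.673 CPM there. Lcn2, an iron-binding antimicrobial protein of neutrophils and epithelium, was at 193, 151, 267 and 80.3 CPM in Isotype and at 123, 42.4, 96.6 and 17.2 in anti-TNF (-1.31 ± 0.65, adjusted p = 0.46, edgeR). In RNA of whole tissue, fewer cells of a type and less RNA per cell cannot be told apart.

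Monocyte and macrophage genes were lower by less, with a median of -0.55. At an unadjusted p under 0.05, 9 of 20 were lower and 0 higher, where 5.51% of all genes were lower. Itgam, the integrin CD11b, was at 60.3, 23.8, 32.8 and 17.5 CPM in Isotype and at 14.0, 15.7, 12.5 and 7.09 in anti-TNF, with no overlap (log2 fold change -1.44 ± 0.37, n = 4 per group, adjusted p = 0.175, edgeR). Arg1, the arginase of myeloid cells, was at 8.38, 0.825, 5.72 and 0.921 CPM against 0.433, 0.713, 1.06 and 0.919, with overlap. Estimates were below 0 for 16 of the 20 genes, and the other 4 were Cx3cr1 (0.32), Mrc1 (0.15), Cd163 (0.08) and Adgre1, listed as Emr1 (0.08). When Isotype 1 and anti-TNF 4 were left out, 2 of the 20 were lower, with a median of -0.35. Dendritic cell genes went both ways: the migration receptor gene Ccr7 was at 10.6 to 18.4 CPM in Isotype and 4.20 to 10.5 in anti-TNF (-1.16), while Clec9a, of cross-presenting dendritic cells, was at 1.53 to 2.39 against 1.97 to 4.19 (0.83).

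Mast cell genes lay on the other side. All 6 measured members of the mast cell and eosinophil list had estimates above 0, with a median of 1.09. At an unadjusted p under 0.05, 3 of them were higher, where 5.68% of all genes were. Another 5 of the 11 list genes, Tpsb2, Ms4a2, Siglecf, Epx and Prg2, were too low to be tested. Mcpt4, a mast cell chymase, was at 3.31, 2.83, 0.347 and 3.22 CPM in Isotype and at 9.10, 4.75, 14.9 and 3.15 in anti-TNF (log2 fold change 1.66 ± 0.52, n = 4 per group, adjusted p = 0.253, edgeR). Anti-TNF 4 overlapped with the Isotype libraries, and Isotype 3 was low. Kit, the stem cell factor receptor, which also marks the interstitial cells of Cajal, was at 16.8 to 29.7 CPM against 21.2 to 55.0 (0.73). Vehicle libraries held 16.7 to 24.4 CPM of Kit, overlapping with Isotype, and 5.28 to 8.22 of Mcpt4, all above the Isotype values. With the 2 libraries that stood apart left out (Isotype 1, anti-TNF 4), 3 of the 6 were higher, with a median of 1.32, and without Isotype 1 alone 1 was, with a median of 1.06.

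T cell genes were present in all 8 libraries, with summed levels of 179 to 233 CPM in Isotype, 86.3 to 212 in anti-TNF and 17.7 to 22.5 in Normal. Of 20, 3 were lower and 0 higher at an unadjusted p under 0.05, where 5.51% of all genes were lower, with a median of -0.55. Lck, the kinase of the T cell receptor, was at 35.3, 27.6, 33.1 and 21.8 CPM in Isotype and at 27.0, 22.6, 17.1 and 8.53 in anti-TNF (log2 fold change -0.65 ± 0.25). Anti-TNF 4 was the lowest, and without it and Isotype 1, 0 of the 20 were lower, with a median of -0.27. Of the T helper genes, Gata3 (-0.91) and Tbx21 (-0.76) had unadjusted p of 0.0334 and 0.0394 in edgeR, and Ifng, at 0.590 to 3.99 CPM in Isotype and 0.919 to 4.77 in anti-TNF, had an estimate of 0.29 ± 0.66. Among cytotoxic genes, Nkg7, of cytotoxic granules, was at 9.55 to 10.6 CPM against 3.41 to 7.80, with no overlap (-0.75 ± 0.26).

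Interferon-gamma response and MHC class II genes gave no call and kept levels far above Normal in both groups. Of 25 and 10 measured genes, 0 were lower and 0 higher at an unadjusted p under 0.05, with medians of 0.02 and -0.05. The summed CPM of the interferon-gamma list was 4183 to 5578 in Isotype, 2587 to 6350 in anti-TNF and 695 to 802 in Normal. The class II chain gene H2-Eb1 was at 993 to 1112 CPM in Isotype and 631 to 1084 in anti-TNF, against 144 to 167 in Normal, and Ciita, the class II transactivator, at 68.2 to 99.0 against 58.4 to 153. Against Normal, H2-Eb1 was higher by 2.55 in anti-TNF (adjusted p = 3.98e-11, edgeR). The chemokine genes Cxcl10 and Cxcl11, induced by interferon, had estimates of -0.89 and -0.97, and those of Cxcl11 did not overlap, at 35.1 to 56.2 CPM against 4.33 to 34.1.

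Type I interferon response genes had estimates above 0 for 18 of 18 members, with 6 higher at an unadjusted p under 0.05 and a median of 0.58. The antiviral genes Ddx58 and Oas3 were at 26.9 to 31.4 and 31.4 to 48.3 CPM in Isotype and at 30.03 to 44.1 and 38 to 106 in anti-TNF. The summed level of the list was 1392 CPM in anti-TNF 4 and 850.5 to 921 in the other 3 anti-TNF libraries, against 653 to 795 in Isotype. Without anti-TNF 4 alone, 0 of the 18 were higher at an unadjusted p under 0.05, with a median of 0.27, and the share of all genes higher at that p was 1.72%, against 5.68% with it. Without it and Isotype 1, 0 of the 18 were higher, with a median of 0.24.

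Matrix proteases and their inhibitors lay on the lower side. Of 14 proteases and inhibitors, 7 were lower and 0 higher at an unadjusted p under 0.05, with a median of -0.91. Mmp3, stromelysin-1 of activated fibroblasts, was at 85.7, 54.2, 52.2 and 11.5 CPM in Isotype and at 8.95, 2.97, 3.18 and 1.31 in anti-TNF, with no overlap (log2 fold change -3.65 ± 0.84, n = 4 per group, adjusted p = 0.164, edgeR). Timp1, an inhibitor of these proteases, was at 41.6, 12.6, 26.0 and 5.80 CPM against 6.35, 3.33, 4.36 and 3.15 (-2.32 ± 0.55), and only Isotype 4 and anti-TNF 1 overlapped. Lox, which cross-links collagen, was at 7.55 to 27.6 CPM against 3.67 to 6.5 (-1.57 ± 0.46). Isotype 1 was the highest library for Mmp3, Timp1 and Lox, and it also held 6315 summed CPM of collagen and matrix genes, against 2961 to 3991 in the other 7 libraries. With both Isotype 1 and anti-TNF 4 left out, 2 of the 14 protease and inhibitor genes were lower, with a median of -0.47. Of 18 collagen and matrix genes, 6 were lower and 1 higher (median -0.42), and of 12 endothelial genes 2 were lower (median -0.25). Over all genes, 5.51% were lower and 5.68% higher at that p. Col4a1, a basement membrane collagen gene, had an estimate of -0.76, and the 2 endothelial genes were Cdh5 (-0.65) and Eng (-0.59). Without Isotype 1 alone the collagen list had 1 lower and a median of 0.05, and the endothelial list 0 and a median of 0.01. Without anti-TNF 4 as well, both lists had 0 lower, with medians of -0.07 and -0.12.

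**Figure D4:**
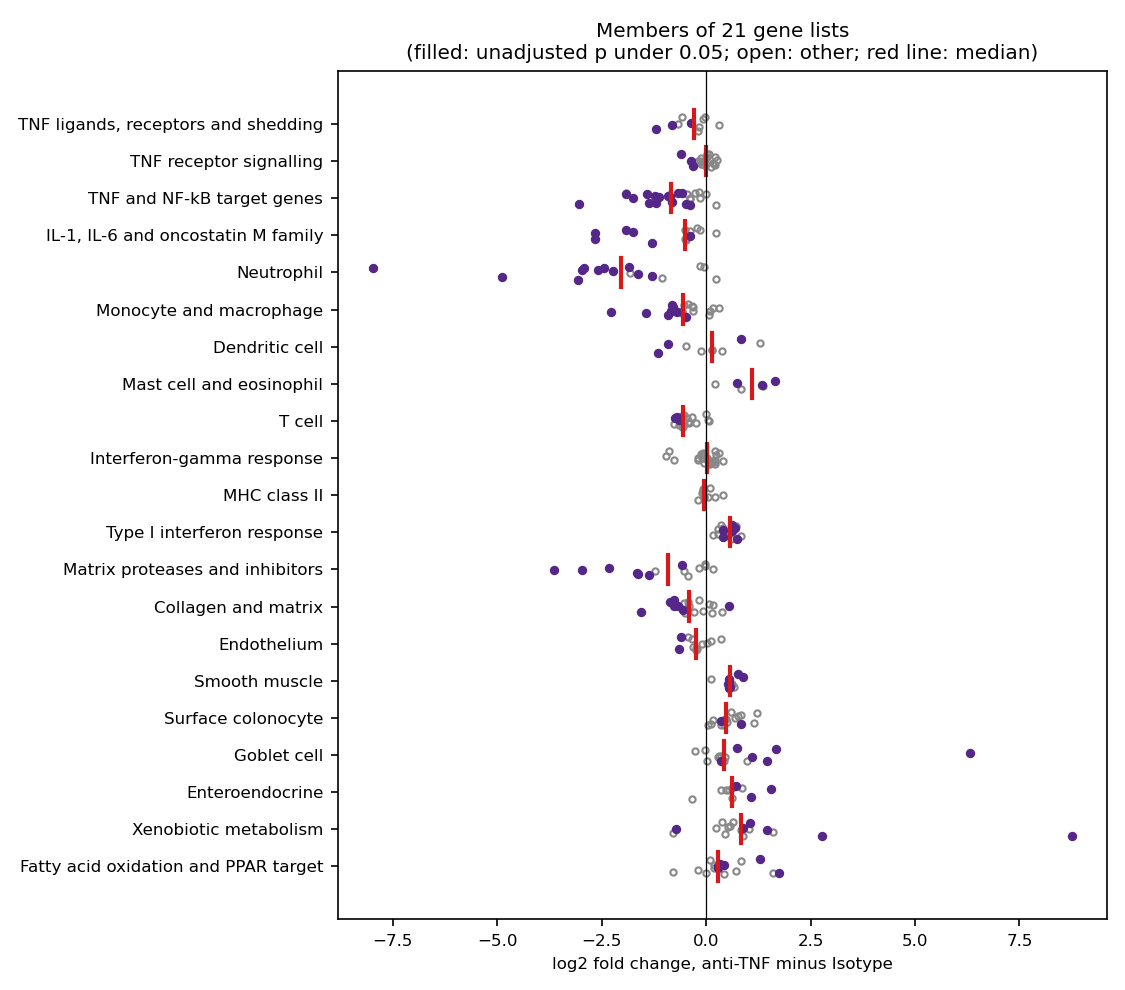
Each point is 1 measured member of 21 gene lists, at its log2 fold change, anti-TNF minus Isotype, filled where the unadjusted p was under 0.05, and the red line is the median of the list. Neutrophil (-2.04), matrix protease (-0.91) and TNF target genes (-0.84) had the lowest medians shown and mast cell genes (1.09) the highest.

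Surface colonocyte and goblet cell genes lay on the higher side, by an amount that fell off without the libraries that stood apart. The surface colonocyte list summed to 15635 to 19643 CPM in Normal and 4705 to 6200 in Vehicle, and to 4241 to 7381 in Isotype, 6398 to 7911 in anti-TNF 1 to 3 and 12602 in anti-TNF 4. Of 15 goblet cell genes, 6 were higher and 0 lower at an unadjusted p under 0.05, with a median of 0.43. The share of all genes higher at that p was 5.68%. The mucin gene Muc2 was at 1426, 4160, 3814 and 4875 CPM in Isotype and at 4526, 4367, 6016 and 4259 in anti-TNF (log2 fold change 0.43 ± 0.24), with Isotype 1 far below the rest. Klk1, a kallikrein, was at 99.9 to 278 CPM in Isotype and 190, 348, 260 and 1350 in anti-TNF (1.67 ± 0.57). Anti-TNF 4 stood alone near the range of Normal colon, 1556 to 1757 CPM. After leaving out Isotype 1 and anti-TNF 4, 2 goblet genes were higher, against 1.07% of all genes, with a median of 0.21. All 16 surface colonocyte genes had estimates above 0, with 2 higher at an unadjusted p under 0.05 (Slc9a3, a sodium-proton exchanger, 0.83, and Ceacam20, 0.36) and a median of 0.49. Without both libraries that median was 0.02.

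Enteroendocrine, xenobiotic, fatty acid oxidation and smooth muscle genes also had medians above 0, but not all epithelial lists did. Of 12 measured crypt genes (stem cell markers and Wnt targets), 5 had estimates below 0, with a median of 0.09. At an unadjusted p under 0.05, 2 were lower and 1 higher, against 5.51% and 5.68% of all genes. Enteroendocrine genes had a median of 0.62, with 3 of 10 higher, among them Insl5, a peptide hormone of colonic L cells, at 8.47 to 107 CPM in Isotype and 89.5, 115, 92.2 and 308 in anti-TNF, and the granin gene Scg3 (1.08). Xenobiotic metabolism genes had 5 of 17 higher and 1, Gsta4, lower (-0.72), with a median of 0.83. Cyp2c55, a cytochrome P450 of the colon, was at 139 CPM in anti-TNF 4 and at 0 to 0.236 in the other 7 libraries, so its estimate of 8.76 rests on 1 library. Fatty acid oxidation genes had 6 of 17 higher, with a median of 0.29. Fabp2, an intestinal fatty acid binding protein, was at 0.882, 4.36, 5.38 and 5.15 CPM in Isotype and at 13.1, 9.15, 8.49 and 22.2 in anti-TNF, with no overlap (log2 fold change 1.75 ± 0.45). Hadhb, of mitochondrial beta-oxidation, was at 48 to 60.01 CPM against 63.3 to 75.7 (0.34 ± 0.13). Of 12 smooth muscle genes, 7 were higher (median 0.58), with Myl9 at 123 to 234 CPM in Isotype, 215 to 268 in anti-TNF 1 to 3 and 573 in anti-TNF 4. Without Isotype 1 and anti-TNF 4 the medians were 0.26 for enteroendocrine, 0.10 for xenobiotic, 0.15 for fatty acid oxidation and 0.12 for smooth muscle genes, with 1, 0, 1 and 0 genes higher at an unadjusted p under 0.05, against 1.07% of all genes.

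The gasdermin genes Gsdmc3 and Gsdmc4, close relatives that may share reads, encode membrane pore proteins. They were at 0.110 to 8.19 and 0.221 to 7.82 CPM in Isotype, and at 4.19, 20.4, 14.7 and 104 and at 7.94, 16.05, 20.3 and 105 in anti-TNF. The groups overlapped for Gsdmc3 and did not for Gsdmc4. Otc, a urea cycle enzyme of the gut epithelium, was at 0 to 0.921 CPM against 0.722, 2.14, 1.06 and 7.35 (log2 fold change 2.88 ± 0.72, adjusted p = 0.164, edgeR). Among antimicrobial genes Pglyrp1, a peptidoglycan recognition protein, was at 592 to 892 CPM against 264 to 602 (-0.60). The list had 11 of 18 estimates below 0 and a median of -0.18. At an unadjusted p under 0.05, 2 were lower and 1 higher, near the 5.51% and 5.68% of all genes.

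Transcripts of other tissues also differed in level. The pancreatic protease gene Ctrb1 was at 1545, 38.2, 6.07 and 3.77 CPM in Isotype and at 0 in all anti-TNF libraries. At an unadjusted p under 0.05, 8 of 9 pancreas genes were lower, against 5.51% of all genes. Without Isotype 1, with or without anti-TNF 4, 0 of the 9 had an unadjusted p under 0.05. Vehicle libraries ranged from 28.5 to 6756 summed CPM of the same list. The haemoglobin gene Hba-a2 was at 14.3, 6.48, 66.4 and 9.85 CPM in Isotype and at 6.21, 4.99, 7.19 and 13.0 in anti-TNF. The part of either tissue in the other differences was not tested.

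Over the 508 different measured genes of all 41 lists, 137 had an unadjusted p under 0.05, 89 lower and 48 higher, against 11.2% of all genes. In edgeR 0 passed the adjusted threshold, against 18 in DESeq2 and 4 in limma-voom with sample weights. The 89 lower genes include 8 pancreas and 5 red blood cell genes, whose lists were highest in Isotype 1 and Isotype 3, respectively. Because the lists were chosen with earlier results of these data known, their excess over all genes is not independent support. This total was not counted again without Isotype 1 and anti-TNF 4. Cell cycle genes (24 measured, median -0.26), B and plasma cell genes (7, -0.86) and enteric neuron and glia genes (11, 0.18) had 0 genes at an unadjusted p under 0.05.

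The last comparison asked where the genes that colitis moved lay between the antibody groups. Vehicle and Normal share no library with Isotype or anti-TNF. Of all genes, 3416 were higher in Vehicle than in Normal past the adjusted threshold (23.1%) and 3437 lower (23.3%), in edgeR. Of the 3416 higher genes, 2810 (82.3%) had estimates below 0 in anti-TNF against Isotype. At an unadjusted p under 0.05, 570 of the 3416 were lower (16.7%) and 29 higher (0.849%). Their median was -0.20. Of the 3437 lower genes, 2949 (85.8%) had estimates above 0, with a median of 0.26. At an unadjusted p under 0.05, 610 of the 3437 were higher (17.7%) and 11 lower (0.320%). The 7920 other genes had a median of -0.01. Over all genes, 50.4% had estimates below 0 and 49.6% above, with 5.51% lower and 5.68% higher at that p. Thus most genes moved by colitis had estimates toward Normal, by a small amount per gene. Set by library, the median distance of the 3416 genes from the Normal mean was 0.96, 0.74, 0.88 and 0.67 in Isotype 1 to 4 and 0.84, 0.53, 0.76 and 0.22 in anti-TNF 1 to 4, on the log2 CPM scale. The groups overlapped, with anti-TNF 4 nearest to Normal and Isotype 1 farthest. For the 3437 genes these medians were -0.88, -0.69, -0.85 and -0.61 in Isotype and -0.82, -0.46, -0.70 and -0.09 in anti-TNF. Without anti-TNF 4 the 2 set medians were -0.09 and 0.10, and without anti-TNF 1 they were -0.30 and 0.35. Without Isotype 1 and anti-TNF 4 they were -0.03 and 0.06, and with sample weights in limma-voom -0.03 and 0.05. Under the column names of the series table, in which 4 of the 8 libraries change group, the set medians were still -0.13 and 0.16. In the 4 libraries on which both labellings agree they were -0.32 and 0.41.

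**Figure D5:**
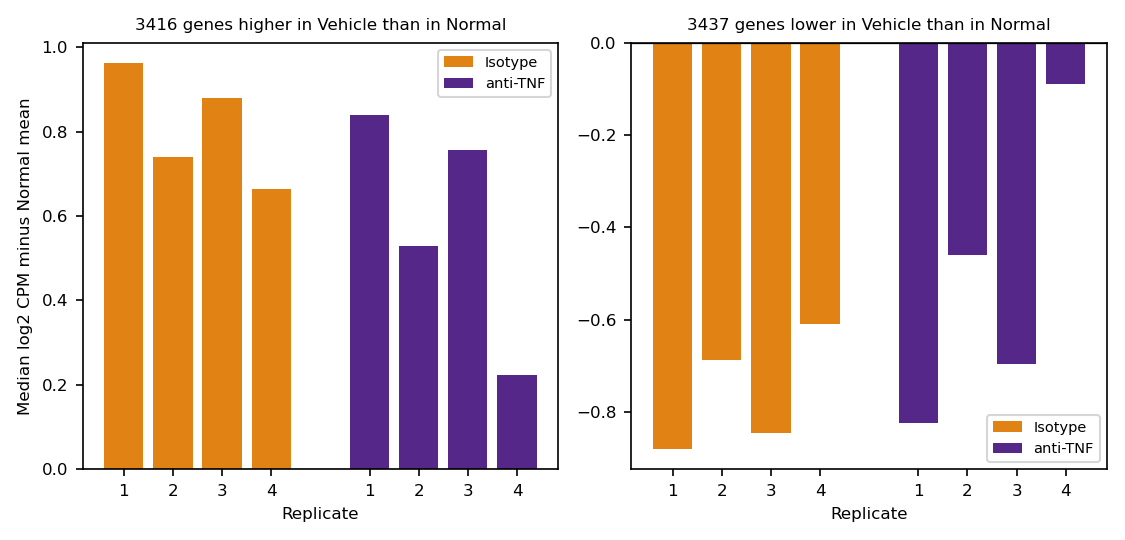
Bars give, for each antibody library, the median log2 CPM minus the Normal mean over the 3416 genes higher and the 3437 genes lower in Vehicle than in Normal. Anti-TNF 4 is nearest to 0 in both panels, at 0.22 and -0.09, followed by anti-TNF 2 at 0.53 and -0.46, and anti-TNF 1 and 3 lie among the Isotype libraries.

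Measured over all genes, Isotype differed from Normal at 6085 genes (41.2%) and anti-TNF at 3310 (22.4%) past the adjusted threshold in edgeR. Both comparisons use the same Normal libraries, and the difference between these counts was not tested. Fpr2, Clec4e and Mmp3 were higher in Isotype than in Normal by 4.37, 5.35 and 4.95 on the log2 scale (adjusted p = 8.28e-05, 0.000609 and 0.000842, edgeR), and in anti-TNF by 1.31, 0.46 and 1.31 (adjusted p = 0.27, 0.856 and 0.413, edgeR). Lcn2, S100a8 and Icam1 remained above Normal past the threshold in anti-TNF as well, by 3.34, 9.15 and 2.09. The 3 called genes were all lower in MEKi 1 than in Vehicle, a comparison with no library of either antibody group, with log2 differences of -3.61 for Gpr84, -2.56 for Mcemp1 and -1.12 for Klf11 (adjusted p = 0.0067, 0.0108 and 0.0146, edgeR). The direction was the same as between the antibody groups for Gpr84 and Mcemp1 and opposite for Klf11.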

How the data were processed

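Poly(A) RNA of 24 mouse colon samples was sequenced, 4 for each of 6 groups. The deposited files, 1 per sample, list raw counts for 43280 gene symbols, and the authors worked on mm10 per the submitters' processing notes. Aligner, counter, annotation and use of strand: not given in the sources used here. Thus antisense, overlapping and closely related genes may share reads. Coordinates are from GENCODE M21 and promoters from RefSeq on GRCm38.p6.

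Groups follow each sample's own file, since 16 of 24 column names in the series table point to a different sample than the identical per-sample file does. Genes were tested on the deposited counts with edgeR 4.0.16 in R 4.3.3, with filterByExpr by group, TMM factors and robust quasi-likelihood fits of all 24 libraries, with group as the only term. This left 14773 genes, with a common dispersion of 0.0539. The threshold was a Benjamini-Hochberg adjusted p of 0.05 over all genes tested. CPM values are TMM-scaled, an SE is the size of a log2 fold change over the root of its F, and fits used a prior count of 0.125. Lists are described by counts and medians only. Same-numbered libraries of both groups had deviations correlated at 0.216, 0.0862, 0.142 and 0.342, which does not settle whether they are pairs. The labels do not say whether they share an animal, cage or day, so replicate numbers were not taken as pairs. Within groups no library duplicated another (chi-square of at least 5.9 per gene).

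The comparison, the 41 lists and the tests were chosen with earlier results of these data known. Named genes were the genes past the threshold, the 10 with the smallest p in each direction, the 5 highest and 5 lowest log2 fold changes without overlap at a mean of at least 5 CPM, up to 2 members of each list and a fixed set of inflammation genes; those of pancreas are given as a summed level and 1 example. Members named besides these (Ngp, Ltf, Ly6g, Cd177, Mrc1, Cd163, Cx3cr1, Adgre1 and Rela) were chosen after their values were seen. Alternatives were DESeq2 1.42.0, limma-voom from limma 3.58.1 with sample weights, other scalings and filters, a fit of 8 libraries, a replicate block, the names of the series table, the libraries on which both labellings agree, a transcript length offset and leaving out each library. Leaving out Isotype 1 and anti-TNF 4 together was added after seeing the data. The fitting code was tested on simulated data.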

Additional observations from a re-analysis of the deposited data

Results flagged for a closer look

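Each value here is a library that lay far from the other 3 of its group, by the ratio of its gap to the group's range (Dixon's test at the 95% level). In all, 29 of 266 tested groups had such a library. The 95% level holds for independent, normally spread values, while these are linear CPM from the same 8 libraries. Some list sums also hold genes tested alone, so the share that chance would give is not known. Of the 29, 12 were in anti-TNF 4, 9 in Isotype 1, 4 in Isotype 3, 2 in anti-TNF 3, 1 in anti-TNF 1 and 1 in Isotype 2.

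In anti-TNF 4, epithelial and muscle genes were high: Lrrc66 at 55.8 CPM, Ang4 at 84.4, Gsdmc4 at 105, Gsdmc3 at 104, Myl9 at 573, Klk1 at 1350, Insl5 at 308 and Cyp2c55 at 139 CPM. The same library had the highest summed CPM of the type I interferon (1392) and enteroendocrine lists (799.5) among the anti-TNF libraries. Its levels of Tnfaip3 (95.7 CPM) and of the epithelial antimicrobial list (27195 summed CPM) were the lowest of the group.

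In Isotype 1, Ctrb1 was at 1545 CPM and the pancreas list at 4892 summed CPM. Collagen and matrix genes summed to 6315 CPM, endothelial genes to 499.7 and squamous epithelium genes to 13.0, and Il11 was at 14.4 and Il6 at 1.32 CPM, all above the other Isotype libraries. Ceacam20 and Cd177 were low there, at 103 and 501 CPM.

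Isotype 3 was high for Hba-a2 (66.4 CPM) and Nfkbia (299.9 CPM) and low for Mcpt4 (0.347 CPM) and Ly6g (190.1 CPM). Anti-TNF 1 was low for Cd163 (1.88 CPM). Anti-TNF 3 was high for Muc2 (6016 CPM) and low for the matrix protease list (376 summed CPM), and Isotype 2 was high for Ttll10 (5.19 CPM).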

How the results depend on the processing

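The count of genes past the threshold (3, 2 lower and 1 higher) depended on the method. It was 77 in DESeq2 (55 lower, 22 higher, 18 of them list genes), 45 in limma-voom with sample weights (35, 10 and 4 list genes) and 0 with genes under a mean of 5 CPM left out, in the fit of the 8 antibody libraries alone, with the column names of the series table, or the 4 libraries on which both labellings agree. The 5 CPM filter took out Gpr84 and Mcemp1 before testing, and Klf11 had an adjusted p of 0.0630 there in edgeR. With library size only, with no filter on low counts, and with a replicate block in the fit of all groups, 2 genes were lower and 0 higher. A replicate block in the fit of the 8 antibody libraries called 277 genes (165 lower, 112 higher, 51 list genes), but the numbers share no stated source, and Isotype 2 correlated best with anti-TNF 4, not with its own number. Leaving out 1 library gave 1 to 34 genes, 1 to 28 lower, 0 to 6 higher and 0 to 6 list genes, highest without Isotype 4. Leaving out Isotype 1 and anti-TNF 4 together gave 1 gene (1 lower, 0 higher). The cause of these moves was not tested.

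Directions that turned were those of small differences or of the series table's names. Under those names Gpr84 was at 0.050, Mcemp1 at 0.047, Clec9a at -0.29, Ciita at -0.26, Slc9a3 at -0.10, Hba-a2 at 1.57, Tnfrsf1a at 0.029, S100a9 at 0.14, Ifng at -0.026, Nfkbia at 0.19, Ngp at 1.13, Rela at 0.052, Mrc1 at -0.17, Cd163 at -0.67, Cx3cr1 at -0.055 and Emr1 at -0.35 on the log2 scale. In the 4 libraries on which both labellings agree, Mrc1 was at -0.013, Cd163 at -0.41 and Emr1 at -0.25. Ltf was at 0.021 with sample weights, 0.064 with a replicate block and 0.026 without Isotype 1 and anti-TNF 4. Tnfrsf1a was at 0.068 with sample weights, and Lta at 0.049 without Isotype 1 and anti-TNF 4. Leaving out 1 library, Lta ranged from -0.23 to 0.39, above 0 without Isotype 2 or anti-TNF 4, and Ifng from -0.037 to 0.59, below 0 without Isotype 2 or anti-TNF 1. On the same basis Ltf ranged from -0.53 to 0.26, above 0 without Isotype 3 or anti-TNF 2 or 4, and Cd177 from -0.00074 to 0.47, below 0 without Isotype 1. Cd163 ranged from -0.27 to 0.69, below 0 without Isotype 3 or 4 or anti-TNF 2 or 4, and Emr1 from -0.13 to 0.37, below 0 without Isotype 2 or 3. RLE factors and a transcript length offset gave the same 3 genes.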
